A study of Mus musculus with 12 samples.

Results

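The 10 genes described here encode the enzymes of de novo lipogenesis, by which cells build fatty acids from acetyl-CoA, and its main transcriptional regulators. They were chosen by name (Acly, Acss2, Me1, Acaca, Acacb, Fasn, Scd1, Srebf1, Mlxipl and Thrsp) and matched by Ensembl gene ID in the RNA-seq counts of subcutaneous white adipose tissue (scWAT). All 10 were among the 55401 gene IDs counted and among the 16540 that passed the filter on low counts, with 2101 to 801771 read pairs per gene and library. The study asked what the histone demethylase JMJD1A, which removes methyl groups from lysine 9 of histone H3, does in scWAT under chronic cold. It compared 12 female mice of the C57BL/6J background, 16 weeks old at the start and kept 1 to a cage, with 3 mice in each of 4 groups and 1 library per mouse. Wild-type (Jmjd1a +/+) mice and Jmjd1a HY/HY mice were all first acclimated at 30°C for 1 week and were then kept either at 30°C, called thermoneutral (TN), or at 8°C for 1 week. The HY allele is a germline knock-in made with CRISPR/Cas9 that replaces a catalytic histidine of JMJD1A with tyrosine. It is present in every cell of the mouse, not in adipocytes alone. The paper treats the mutant protein as lacking demethylase activity. Its assay of lost activity used recombinant human protein with phenylalanine at this histidine. The study made 2 mutant lines and took its females from 1 of them, so the Jmjd1a HY/HY groups stand for a single line.

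Fatty acid synthesis starts in the cytosol. ATP citrate lyase (Acly) cleaves citrate to acetyl-CoA, and acetyl-CoA synthetase (Acss2) makes acetyl-CoA from acetate. Acetyl-CoA carboxylase (Acaca in the cytosol, Acacb at the outer mitochondrial membrane) turns it into malonyl-CoA, fatty acid synthase (Fasn) joins these units to palmitate with NADPH that cytosolic malic enzyme (Me1) helps to supply, and stearoyl-CoA desaturase (Scd1) puts in the first double bond. Srebf1 encodes SREBP1, a membrane-bound factor released by proteolysis and driven by insulin, Mlxipl encodes ChREBP, a factor activated by sugar metabolites, and Thrsp encodes a nuclear protein induced by thyroid hormone and carbohydrate together with the lipogenic enzymes. In adipose tissue of rodents kept in the cold, synthesis and burning of fatty acids are known to run side by side in thermogenic adipocytes.

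RefSeq (GRCm38.p6, the build called mm10) gave promoters for 9 of the 10 genes, with 13 start sites. The 250 bases upstream of the start are shown for the 5 genes whose first listed start lies at the end of the RefSeq gene span. Me1 and Acss2 had the largest differences between the genotypes at 30°C, Acly and Thrsp also rose in the cold in wild-type mice, and Mlxipl did not pass that test. Capitals mark matches, on either strand, to the CCAAT box (CCAAT), the GC box (GGGCGG) or an E-box (CACGTG), read 5′ to 3′ on the strand of the gene.
Me1 (chr9:86695915-86696164, minus strand): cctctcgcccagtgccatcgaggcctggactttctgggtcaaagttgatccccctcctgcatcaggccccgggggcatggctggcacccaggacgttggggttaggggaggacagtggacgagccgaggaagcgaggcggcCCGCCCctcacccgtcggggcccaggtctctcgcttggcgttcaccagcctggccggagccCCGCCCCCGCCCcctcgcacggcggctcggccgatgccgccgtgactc
Acss2 (chr2:155517793-155518042, plus strand): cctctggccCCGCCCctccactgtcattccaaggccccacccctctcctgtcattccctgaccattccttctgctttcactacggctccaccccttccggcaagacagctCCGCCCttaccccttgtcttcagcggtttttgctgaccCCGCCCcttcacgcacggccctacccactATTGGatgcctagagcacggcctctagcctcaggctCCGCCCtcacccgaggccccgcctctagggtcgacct
Acly (chr11:100528001-100528250, minus strand): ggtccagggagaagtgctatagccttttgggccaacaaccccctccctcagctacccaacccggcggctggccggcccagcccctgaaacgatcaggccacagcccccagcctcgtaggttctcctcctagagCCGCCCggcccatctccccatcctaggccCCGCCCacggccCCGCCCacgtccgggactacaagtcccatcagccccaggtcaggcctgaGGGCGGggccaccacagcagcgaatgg
Thrsp (chr7:97417551-97417800, minus strand): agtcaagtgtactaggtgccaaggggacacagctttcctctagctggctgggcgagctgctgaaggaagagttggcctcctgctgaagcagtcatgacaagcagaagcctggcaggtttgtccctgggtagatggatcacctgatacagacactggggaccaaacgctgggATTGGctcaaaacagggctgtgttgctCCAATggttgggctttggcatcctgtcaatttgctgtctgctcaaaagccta
Mlxipl (chr5:135089640-135089889, plus strand): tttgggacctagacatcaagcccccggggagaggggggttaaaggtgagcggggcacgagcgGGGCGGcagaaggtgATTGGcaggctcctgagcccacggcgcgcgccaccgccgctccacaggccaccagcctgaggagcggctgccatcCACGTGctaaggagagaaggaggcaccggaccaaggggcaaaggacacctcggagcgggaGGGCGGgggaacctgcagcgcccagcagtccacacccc
In these windows, Me1 has 3 GC boxes and no CCAAT box, Acss2 has 4 GC boxes and 1 CCAAT box, Acly has 4 GC boxes, and Thrsp has 2 CCAAT boxes and no GC box. Over all 13 windows, a CCAAT box was present in 8 (61.5%) and a GC box in 6 (46.2%), against 33.8% and 32.7% of the 32851 RefSeq windows of this length. The E-box was found in 1 of the 13 windows, that of Mlxipl shown here, against 6.02% of all windows. A sterol regulatory element (TCACNCCAC) was also found in 1 of 13 windows, 136 bases upstream of a second start of Mlxipl, against 1.05% of all windows. A match describes letters and is not a binding site. The windows of Acaca, Acacb, Fasn and Srebf1 lie at starts inside the gene span rather than at its end and are not shown. The same holds for the second starts of Me1 and Mlxipl. All of these are among the 13 windows counted. The read counts join all starts of a gene, so transcripts from different starts of Srebf1, Mlxipl and Me1 were not told apart.

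Each library held 31873975 to 61065333 read pairs, of which 13592629 to 26352081 were counted on the sense strand of genes. Levels are in CPM, the counts of a library divided by its TMM-scaled total, and fold changes come from a quasi-likelihood model of edgeR fitted to all 12 libraries, with p-values adjusted over all 16540 genes by the Benjamini-Hochberg method. Called means an adjusted p under 0.05 together with a change of over 1.5-fold upwards or to below 0.67 of the reference. Kdm3a, which encodes JMJD1A, stood between 35.7 and 61.7 CPM in every library, and since the HY substitution leaves the transcript in place, this level does not check the genotype labels. All 8 white adipocyte markers were detected in every group, with summed levels of 21547 to 49408 CPM over the libraries. The summed level of the 6 markers of beige and brown adipocytes rose with cold from 48.3 to 146 CPM over the wild-type libraries to 7659 to 8640 CPM, and over those of Jmjd1a HY/HY mice from 45.6 to 170 CPM to 417 to 1508 CPM. Ucp1, the uncoupling protein of these cells, stood at 0.116 to 4.58 CPM in the 6 libraries at 30°C, and at 8°C at 5048 to 6055 CPM in wild-type and 212 to 904 CPM in Jmjd1a HY/HY mice. The 9 markers of mammary epithelium, which lies in the subcutaneous fat of female mice, summed to 853 to 2328 CPM in 9 libraries and to 3332 to 5442 CPM in the 3 of the thermoneutral wild type. Replicate 2 of wild-type mice at 30°C carried 1046 CPM of the 6 skeletal muscle markers, against 3.05 to 21.6 CPM elsewhere. In whole tissue, fewer cells of a type and less RNA per cell cannot be told apart.

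The 10 genes together took 1.84% to 7.59% of all counts on genes. At 30°C their summed level was 24006 ± 7237 CPM in the wild type and 53620 ± 12167 CPM in Jmjd1a HY/HY mice (SD, n = 3). At 8°C it was 70007 ± 4083 CPM and 71709 ± 13031 CPM. The 3 wild-type libraries at 30°C were the lowest of the 12, and the other 3 groups overlapped. Scd1 made up 41.2% to 66.8% of the sum. Without Scd1 the means in the same order were 10415, 26233, 28895 and 25832 CPM. Per kilobase of exon, in wild-type mice at 30°C, Scd1 was the highest of the 10 at 2811 CPM per kilobase, followed by Thrsp at 1278, Fasn at 517, Me1 at 209 and Acly at 169.9. The lowest were Acacb at 30.1 and Acss2 at 22.1, whose libraries overlapped, since Acacb stood at 18.3 in replicate 2.

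**Figure D1:**
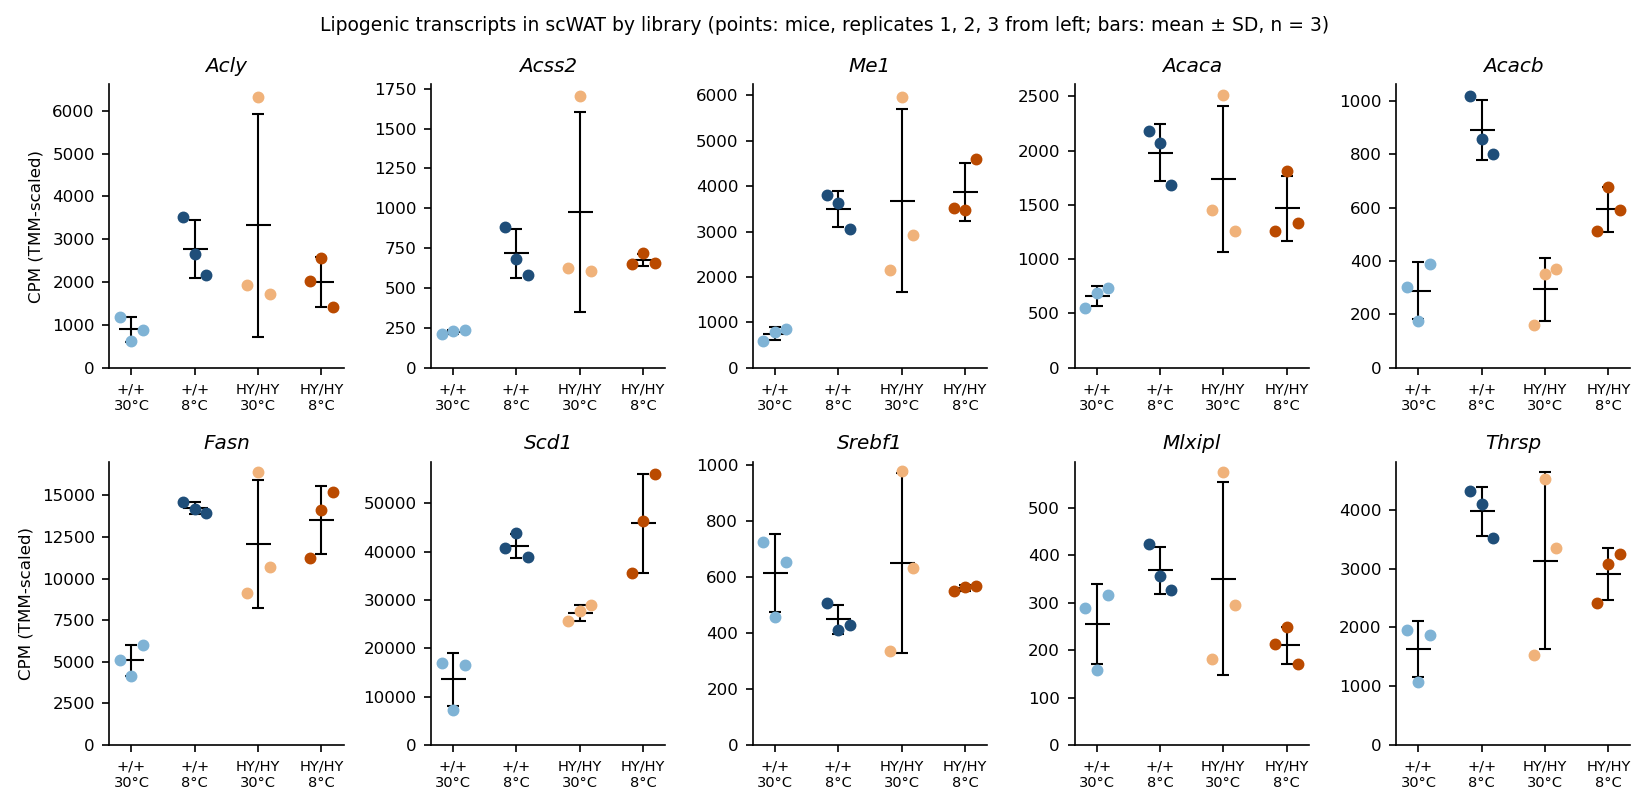
CPM of the 10 genes in each of the 12 libraries, on linear axes from 0, with points for mice in replicate order and bars for the mean ± SD of 3 mice. For Me1, Acss2, Acaca, Fasn, Acly and Scd1 the 3 wild-type libraries at 30°C lie below all 9 others, and replicate 2 of the Jmjd1a HY/HY group at 30°C is the highest point for 8 of the 10 genes. The share of all genes with either pattern was not computed.

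In wild-type mice, 1 week at 8°C raised 8 of the 10 genes and lowered 0. Over all genes tested, 10.3% were called higher and 6.93% lower in this comparison. The 8 rose 2.44- to 4.67-fold and comprise all the enzymes and Thrsp, whereas Srebf1 and Mlxipl, which encode the transcription factors SREBP1 and ChREBP, did not pass the test. For 9 of the 10 genes all 3 libraries at 8°C lay above all 3 at 30°C, which held for 20.7% of all genes, while 22.7% lay wholly below. The median log2 fold change of the 10 was 1.59, against -0.07 for all genes.

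The transcript of malic enzyme rose most. Me1 stood at 586, 794 and 863 CPM in replicates 1, 2 and 3 of wild-type mice at 30°C and at 3804, 3625 and 3044 CPM at 8°C. Even the lowest library in the cold was more than 3 times the highest at 30°C. The rise was 4.67-fold (95% interval 2.79 to 7.8, log2 2.22, SE 0.34; edgeR, adjusted p = 0.000888).

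Both genes of acetyl-CoA supply rose about alike. Acss2 stood at 210.4, 229.6 and 235 CPM at 30°C and at 884, 683 and 583 CPM at 8°C. The values at 30°C lay within a factor of 1.12, those at 8°C were more spread, and the groups did not overlap (log2 1.67, SE 0.34, edgeR adjusted p = 0.00522). Acly stood at 1187, 614 and 890.0 CPM at 30°C and at 3515, 2646 and 2171 CPM at 8°C. These groups did not overlap either, but Acly had the widest interval of the 10, with a log2 rise of 1.63 (0.61 to 2.65, edgeR adjusted p = 0.0266).

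Transcripts of both carboxylases rose, Acaca 2.99-fold and Acacb 3.08-fold. Acaca went from 555, 693 and 738 CPM at 30°C to 2183, 2074 and 1687 CPM at 8°C, and Acacb from 303, 177 and 389 to 1019, 857 and 801 CPM. Neither gene had overlapping groups. The log2 rise was 1.58 (SE 0.26, edgeR adjusted p = 0.00155) for Acaca and 1.62 (SE 0.33, adjusted p = 0.00481) for Acacb.

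Fasn stood at 5088, 4163 and 6033 CPM at 30°C and at 14632, 14171 and 13931 CPM at 8°C, where the 3 libraries differed by a factor of only 1.05. The transcript of fatty acid synthase thus rose 2.8-fold (95% interval 1.85 to 4.22, edgeR adjusted p = 0.00283). Scd1, the most abundant of the 10, stood at 16944, 7294 and 16537 CPM at 30°C and at 40638, 43865 and 38832 CPM at 8°C. The groups were far apart, and replicate 2 at 30°C, the library with the muscle transcripts, was the lowest of all 12. Its rise was 3.02-fold (95% interval 1.78 to 5.15, edgeR adjusted p = 0.00752).

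Among the regulators, Thrsp rose from 1952, 1079 and 1865 CPM to 4317, 4097 and 3514 CPM (log2 1.28, SE 0.35, edgeR adjusted p = 0.0214). Mlxipl stood at 289, 158 and 316 CPM at 30°C and at 423, 355 and 326 CPM at 8°C. Its 3 cold libraries lay above the 3 others, by little, and its log2 change of 0.53 had an interval of -0.26 to 1.33 (edgeR adjusted p = 0.304). Srebf1 stood at 726, 457 and 653 CPM at 30°C and at 505, 409.8 and 429 CPM at 8°C. It was the only one of the 10 with a negative fitted change, -0.45 with an interval of -1.11 to 0.21 (edgeR adjusted p = 0.297), and its groups overlapped. With each of the 12 libraries left out in turn, 6 to 8 of the 10 were called higher. The count was 6 without replicate 2 of the wild-type group at 30°C, or without replicate 1 or replicate 2 of the wild-type group at 8°C, as Acly (edgeR adjusted p 0.0966, 0.0835 and 0.0604) and Thrsp (0.0801, 0.061 and 0.0594) were no longer called. Acly alone was lost without replicate 3 of the wild-type group at 30°C (0.0548). The rise of the beige markers and the fall of the mammary markers, 4 of 9 of which were called lower, went with these changes in the same libraries. Of the 8 white adipocyte markers 2, Lep and Cfd, were called lower and 0 higher. The part of these lists in the changes was not tested.

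In Jmjd1a HY/HY mice, 0 of the 10 genes were called in either direction by 1 week at 8°C. Few genes were called in this comparison at all, 0.181% higher and 0.0665% lower. At an unadjusted p under 0.05, 1 of the 10 passed by edgeR, against 14.7% of all genes, and DESeq2 called 1. That gene was Acacb, the mitochondrial carboxylase. Acacb stood at 159, 353 and 370.5 CPM at 30°C and at 512, 679 and 591 CPM at 8°C. The groups did not overlap, with a log2 change of 1.01 and an interval of 0.31 to 1.72 (edgeR adjusted p = 0.197, DESeq2 adjusted p = 0.0472). Scd1 was the other gene without overlap, which held for 9.33% of all genes upwards and 9% downwards. It stood at 25633, 27605 and 28922 CPM at 30°C and 35464, 46228 and 55939.6 CPM at 8°C. Its fold change was 1.68 with a 95% interval of 0.994 to 2.82 (edgeR adjusted p = 0.345). Of the 6 beige markers, 3 were called higher in the same libraries, and their part in these values was not tested.

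The other 8 genes overlapped between the temperatures in Jmjd1a HY/HY mice, with log2 changes from -0.74 for Mlxipl to 0.16 for Fasn. Me1, which rose most in wild-type mice, stood at 2148, 5967 and 2916 CPM at 30°C and at 3528, 3469.8 and 4602 CPM at 8°C. The cold libraries lay inside the range of the others, and the change of 0.07 had an interval of -0.64 to 0.78 on the log2 scale, which does not reach the fitted rise in wild-type mice. The interval for Fasn was -0.42 to 0.74 and for Acaca -0.81 to 0.32. Acly was lower in the cold in the fit, at -0.73 with an interval of -1.73 to 0.27, but this rests on 1 library. Without replicate 2 at 30°C the log2 change of Acly was 0.14, that of Acaca 0.12, that of Acss2 0.14, that of Thrsp 0.26 and that of Srebf1 0.21. Each of these 5 signs turned from negative to positive, with 0 of the 10 genes called.

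At 30°C, without cold, the Jmjd1a HY/HY group had higher levels of 3 of the 10 genes than the wild type. The comparison uses the same wild-type libraries at 30°C as the cold response of wild-type mice, so the 2 sets of changes are not independent. All 10 fitted changes were positive, and 0 genes were called lower, with 0.562% of all genes called higher and 0.441% lower. The 3 were Me1, Acss2 and Acaca. In 6 of the 10 all 3 Jmjd1a HY/HY libraries lay above all 3 wild-type libraries, which held for 7.66% of all genes, while 10.6% lay wholly below. At an unadjusted p under 0.05, 7 of the 10 passed, against 18.6% of all genes, and the median log2 change was 1.13, against -0.01 for all genes.

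Me1 stood at 2148, 5967 and 2916 CPM in the 3 thermoneutral Jmjd1a HY/HY mice, against the 586, 794 and 863 CPM of wild-type mice given before. The lowest of the mutant values was more than 2 times the highest wild-type value. The difference was 4.92-fold (95% interval 2.94 to 8.23, edgeR adjusted p = 0.0187). Acss2, the enzyme that uses acetate, stood at 623, 1701 and 604 CPM against 210.4, 229.6 and 235 CPM, a 4.34-fold difference (95% interval 2.56 to 7.33, edgeR adjusted p = 0.0268). Acaca stood at 1453, 2512 and 1260.0 CPM against 555, 693 and 738 CPM, a 2.63-fold difference (95% interval 1.77 to 3.91, edgeR adjusted p = 0.0358). In none of these 3 genes did the groups overlap.

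Acly, Fasn and Scd1 also had groups that did not overlap at 30°C, without passing the adjusted test. Acly stood at 1925, 6329 and 1726 CPM in Jmjd1a HY/HY mice (log2 1.89, SE 0.47, edgeR adjusted p = 0.0719). Without replicate 2 of this group, its highest library, the log2 difference was 1.03. Fasn stood at 9132, 16414 and 10715 CPM (log2 1.25, SE 0.27, edgeR adjusted p = 0.0522). For Acly and Fasn replicate 2 was far above its group, whereas the 3 Scd1 values lay within a factor of 1.13 (log2 1.01, SE 0.35, edgeR adjusted p = 0.156). Thrsp overlapped, at 1527, 4517 and 3349.9 CPM (log2 0.94, edgeR adjusted p = 0.185). The log2 differences of Srebf1 (0.08, interval -0.58 to 0.74), Mlxipl (0.46, interval -0.33 to 1.25) and Acacb (0.02, interval -0.67 to 0.72) were the smallest of the 10.

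The calls at 30°C depend on single libraries and on the method. Replicate 2 of Jmjd1a HY/HY mice was the highest of all 12 libraries for 8 of the 10 genes, and replicate 2 of wild-type mice was the lowest for 5. The share of all genes with these extremes was not computed. With both left out, Me1 (log2 1.80) and Acss2 (1.46) were still called and Acaca (1.07, edgeR adjusted p = 0.0936) was not, an alternative chosen after the data were seen. With each library left out in turn the count fell to 0 when replicate 1 or replicate 2 of the wild-type group at 30°C was left out, and it rose to 6 when replicate 1 of the Jmjd1a HY/HY group at 30°C was. It was 1 without replicate 2 or 3 of the wild-type group or replicate 1 of the Jmjd1a HY/HY group at 8°C, which are not among the 6 libraries compared. DESeq2 called 6, and a fit of the 6 libraries at 30°C alone called 0. The share of all genes called was not computed for these alternatives, so their counts have no such share beside them. The summed mammary markers were 853 to 2162 CPM in Jmjd1a HY/HY and 3332 to 5442 CPM in wild-type mice at 30°C, with 1 of 9 called lower. In the same order the summed macrophage markers were 192 to 341 and 181 to 189 CPM. The summed liver markers were 65.4 to 149 and 44.1 to 64.0 CPM, with 0 of the 3 tested called. The part of these lists in the differences was not tested.

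**Figure D2:**
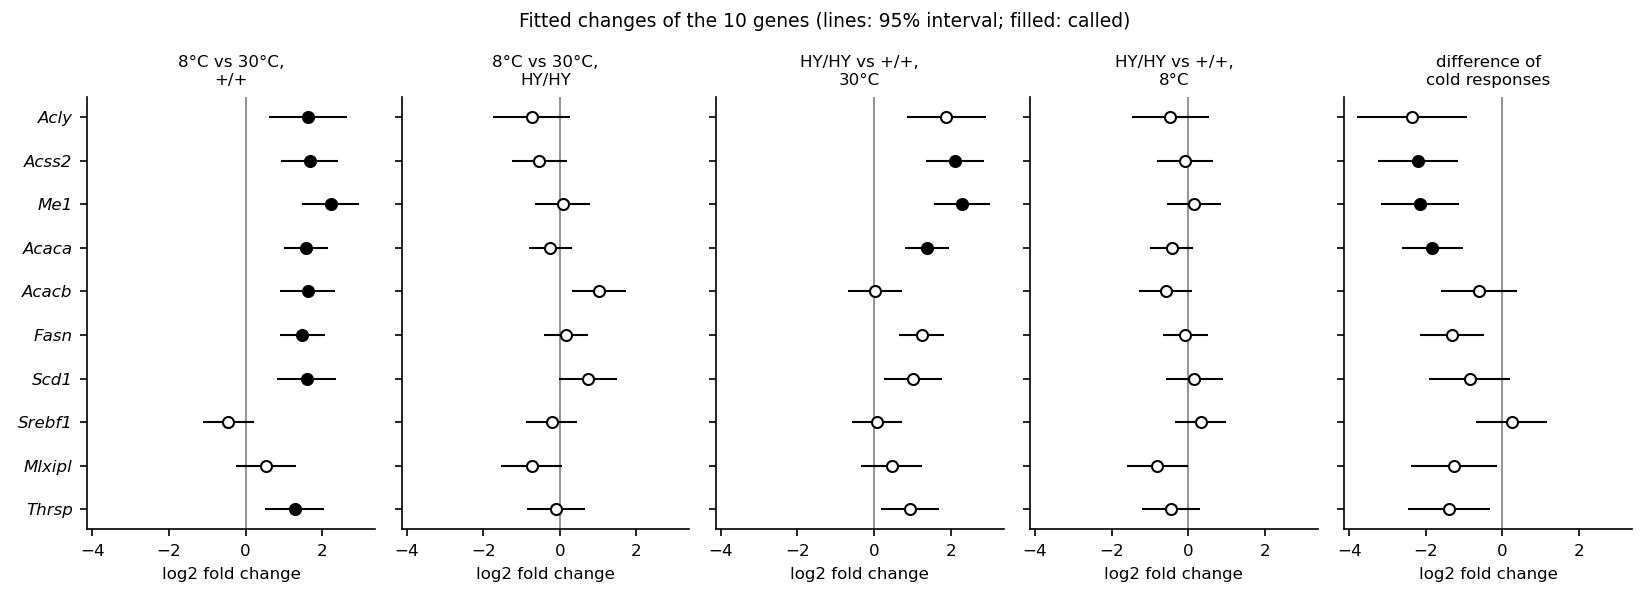
Fitted log2 fold change of each gene (points) with its 95% interval (lines) in the 4 comparisons and in the difference of the cold responses, Jmjd1a HY/HY minus wild type. Filled points passed the call, 8 for cold in wild-type mice, 0 for cold in Jmjd1a HY/HY mice, 3 between genotypes at 30°C, 0 at 8°C and 3 for the difference.

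At 8°C, 0 of the 10 genes were called between the genotypes in either direction, in a comparison where 1.51% of all genes were called higher and 4.42% lower. DESeq2 also called 0, and at an unadjusted p under 0.05 1 gene passed by edgeR, against 22.4% of all genes. Fasn stood at 11266, 14119 and 15227 CPM in Jmjd1a HY/HY mice and 14632, 14171 and 13931 CPM in wild-type mice. The ranges overlapped, and the difference was 0.95-fold with a 95% interval of 0.635 to 1.42. On the log2 scale, Me1 differed by 0.15 (-0.56 to 0.86), Acss2 by -0.08 (-0.81 to 0.64), Scd1 by 0.16 (-0.59 to 0.91), Acaca by -0.43 (-0.99 to 0.13) and Acly by -0.47 (-1.47 to 0.53).

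In 3 genes the Jmjd1a HY/HY libraries at 8°C lay below all wild-type libraries, which held for 19% of all genes, and in 1 they lay above, which held for 16.4%. Mlxipl was the gene at an unadjusted p under 0.05, with 213, 248 and 171 CPM in Jmjd1a HY/HY mice and 423, 355 and 326 CPM in wild-type mice (log2 -0.81, SE 0.37, edgeR adjusted p = 0.218). It was called lower when only the 6 libraries at 8°C were fitted (adjusted p = 0.0109). Acacb, at 512, 679 and 591 against 1019, 857 and 801 CPM, and Thrsp, at 2407, 3071 and 3255 against 4317, 4097 and 3514 CPM, were the other two (log2 -0.59 and -0.45, edgeR adjusted p = 0.311 and 0.488). Srebf1 was the gene with higher libraries, at 549.6, 563 and 568 CPM against 505, 409.8 and 429 CPM (log2 0.32, edgeR adjusted p = 0.585). In the same libraries the summed beige markers were 417 to 1508 CPM against 7659 to 8640 CPM, and 5 of the 6 were called lower in the Jmjd1a HY/HY group. The summed macrophage markers were 226 to 305 CPM against 133 to 153 CPM, with 2 of 6 called higher (Csf1r and Mrc1), and the summed liver markers 83.7 to 192 CPM against 51.9 to 64.9 CPM. Of the 8 white adipocyte markers 2, Lep and Retn, were called higher. The part of these lists in these values was not tested.

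The difference of the cold responses, that of Jmjd1a HY/HY minus that of wild-type mice, was tested by the interaction term. It was negative for 9 of the 10 genes and called, at an adjusted p under 0.05, for 3, while 2.07% of all genes were called lower and 0.169% higher. The 3 were Acss2 at -2.20 (SE 0.48, edgeR adjusted p = 0.0375), Me1 at -2.15 (SE 0.46, adjusted p = 0.0372) and Acaca at -1.83 (SE 0.37, adjusted p = 0.0302), each of which was also called between the genotypes at 30°C, a difference that is part of this term. Acly was at -2.36 with an interval of -3.79 to -0.93 (edgeR adjusted p = 0.0954), and at -1.49 without replicate 2 of the thermoneutral Jmjd1a HY/HY group. Fasn was at -1.32 (adjusted p = 0.106), Thrsp at -1.39 (0.2), Mlxipl at -1.27 (0.269), Scd1 at -0.85 (0.441) and Acacb at -0.61 (0.567). Srebf1 was the one positive gene, at 0.24 (0.837). With each library left out in turn, 7 of 12 fits called 0 of the 10, and library totals in place of TMM also gave 0, whereas DESeq2 called 5. For these alternatives too the share of all genes called was not computed.

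Acaca makes malonyl-CoA for synthesis, whereas malonyl-CoA from Acacb is known to restrain fatty acid import into mitochondria. Per kilobase of exon, the ratio of their levels, Acaca to Acacb, was 1.73, 3.71 and 1.79 at 30°C and 2.03, 2.29 and 1.99 at 8°C in replicates 1, 2 and 3 of the wild type. In the Jmjd1a HY/HY groups it was 8.62, 6.74 and 3.22 at 30°C and 2.33, 2.53 and 2.13 at 8°C. The groups at 30°C overlapped through replicate 2 of wild-type mice, and all 3 Jmjd1a HY/HY libraries at 30°C lay above those at 8°C. The two-sided exact permutation p was 0.2 between the genotypes at either temperature, 0.1 for cold in Jmjd1a HY/HY mice and 1 for cold in wild-type mice, where 0.1 is the smallest that 3 against 3 can give. This ratio was chosen after the values were seen.

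The neighbouring steps of the pathway were covered by 6 lists of 53 genes, of which 51 were tested. Nnt and Pklr did not pass the filter. In wild-type mice, 8°C raised 20 of the 51 and lowered 0, against 10.3% and 6.93% of all genes, with a median log2 change of 0.49. The count raised was 14 to 23 under the alternatives, and that lowered reached 5 with library totals in place of TMM. The rises were in the lists for citrate, acetyl-CoA and malonyl-CoA handling (8 of 9), for NADPH supply (6 of 9 tested), and for desaturation and elongation (5 of 10). Of the 8 tested genes around ChREBP and LXR 1 was called, the glucose transporter gene Slc2a4. Among the 6 genes that process SREBP and the 9 that control the carboxylases, 0 were called. Cs, citrate synthase, rose from 458 ± 75.5 to 1750.4 ± 159 CPM (log2 1.93, SE 0.19, edgeR adjusted p = 4.97e-05). Pgls, an enzyme of the oxidative pentose phosphate pathway, rose from 70.0 ± 6.25 to 159 ± 9.15 CPM (log2 1.18, edgeR adjusted p = 4.23e-05). Me3, the mitochondrial NADP-dependent malic enzyme, rose from 1.38 ± 0.252 to 11.8 ± 0.912 CPM (log2 3.08, edgeR adjusted p = 6.09e-05), and Hsd17b12, which acts in fatty acid elongation, from 163 ± 27.5 to 528 ± 13.7 CPM (log2 1.70, edgeR adjusted p = 7.13e-05).

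In Jmjd1a HY/HY mice, edgeR called 0 of the 51 in the cold, and it called 0 between the genotypes at 30°C. Of all genes, it called 0.181% higher and 0.0665% lower in the first comparison, and 0.562% and 0.441% in the second. At such shares, 0 of 51 does not set these lists apart from other genes. Both counts of 0 depend on single libraries and on the method. At 30°C the count called higher was 10 with DESeq2, 10 without replicate 1 of the Jmjd1a HY/HY group at 30°C and 8 without a filter on low counts, and in cold Jmjd1a HY/HY mice it was 4 with DESeq2 and 7 without replicate 3 of that group at 30°C. At 8°C the Jmjd1a HY/HY group had lower levels of 6 of the 51 and a higher level of 1, where 4.42% and 1.51% of all genes were called. The count of lower genes was 4 to 8 under the alternatives, and that of higher genes 0 to 4. Me3 stood at 1.70 ± 0.263 CPM in Jmjd1a HY/HY mice (log2 -2.79, edgeR adjusted p = 0.000986), Pgls at 74.2 ± 4.11 CPM (log2 -1.10, adjusted p = 0.000629), Cs at 899 ± 58.2 CPM (log2 -0.96, adjusted p = 0.00976) and Acss1, the mitochondrial acetyl-CoA synthetase, at 25.9 ± 4.03 against 74.4 ± 2.04 CPM (log2 -1.52, adjusted p = 0.00229). The gene called higher was Fads1, a desaturase of polyunsaturated fatty acids, at 154 ± 30.0 against 95.5 ± 1.00 CPM (log2 0.69, edgeR adjusted p = 0.0214). With single libraries left out the adjusted p of Fads1 reached 0.0945 and that of Cs 0.0547. The interaction called 6 of the 51 lower, with 2.07% of all genes called lower, and the count was 2 without replicate 1 of the thermoneutral wild type, 11 without replicate 1 of the thermoneutral Jmjd1a HY/HY group and 12 with DESeq2. Among the 6 were Pgls at -1.14 (adjusted p = 0.00787), Me3 at -3.01 (0.0113), Cs at -1.54 (0.0135) and Elovl6, which elongates palmitate, at -2.97 (0.0226). At 30°C Elovl6 stood at 227 ± 58.8 CPM in the wild type and 769 ± 431 CPM in Jmjd1a HY/HY mice, and at 8°C at 1185.0 ± 329 CPM and 511 ± 184 CPM. Without single libraries its adjusted p in the interaction reached 0.078.

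**Figure D3:**
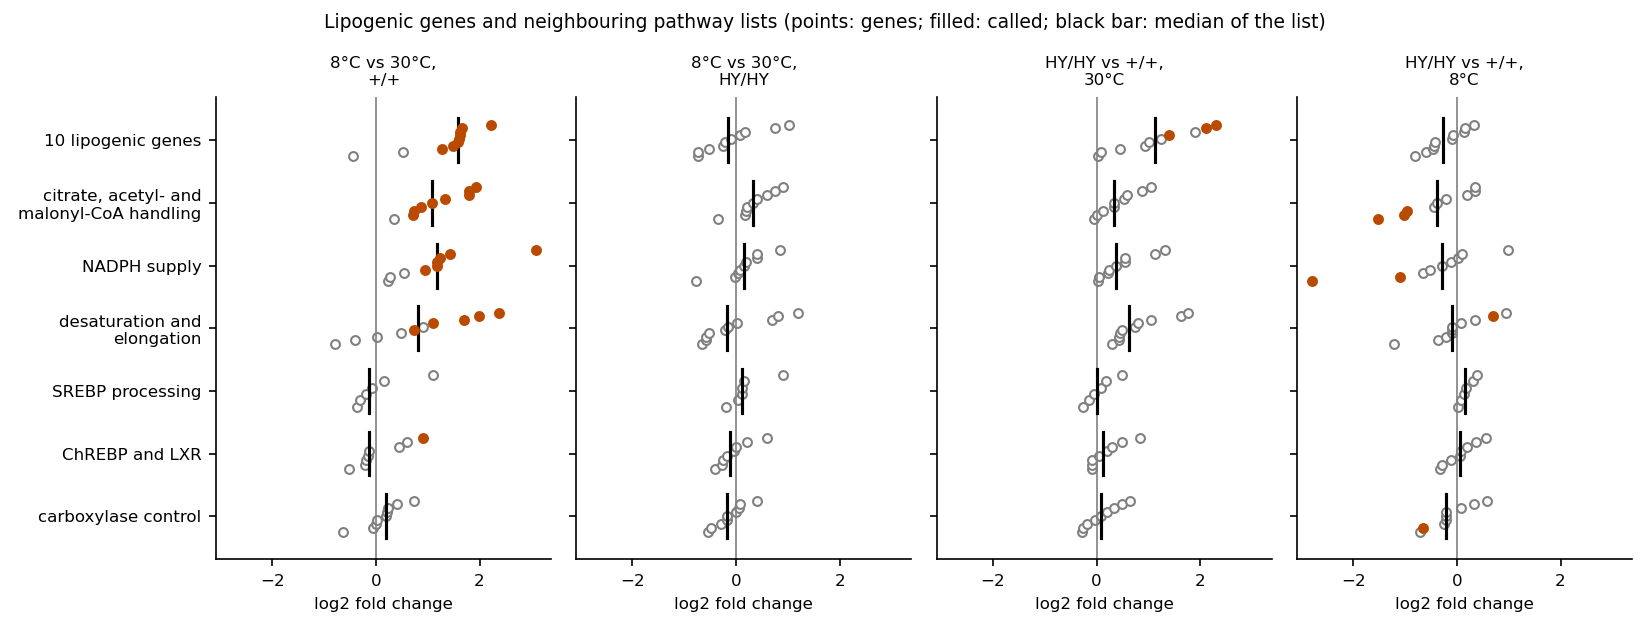
Fitted log2 fold change of the 10 lipogenic genes and of the 51 tested genes of 6 neighbouring lists, with filled points for called genes and a black bar at the median of each list. In wild-type mice 20 of the 51 were called higher in the cold, and at 8°C 6 of the 51 were called lower in Jmjd1a HY/HY mice.

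Among 14485 other genes, the 5 whose standardised log2 CPM over the 12 libraries lay nearest to the mean profile of the 10 were Rims4, Derl1, Nsdhl, Ank and Ptger3, at a root mean square difference of 0.19 to 0.31, against a median of 1.39. Of the 10 themselves, Thrsp (0.278) and Fasn (0.308) lay nearest to their common profile and Mlxipl (0.785) and Srebf1 (1.17) farthest. Each of the 10 is part of the profile it is measured against, and the 14485 others are not, so the 2 sets of distances are not alike. Nsdhl, an enzyme of cholesterol synthesis, stood at 42.8 ± 11.6 CPM at 30°C in the wild type and 80.4 ± 31.3 CPM in the Jmjd1a HY/HY group, and at 97.1 ± 3.70 CPM and 87.9 ± 2.86 CPM at 8°C. The likeness is a description over 12 libraries, of which 1, replicate 2 of the Jmjd1a HY/HY group at 30°C, was the highest for 8 of the 10 genes.

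**Figure D4:**
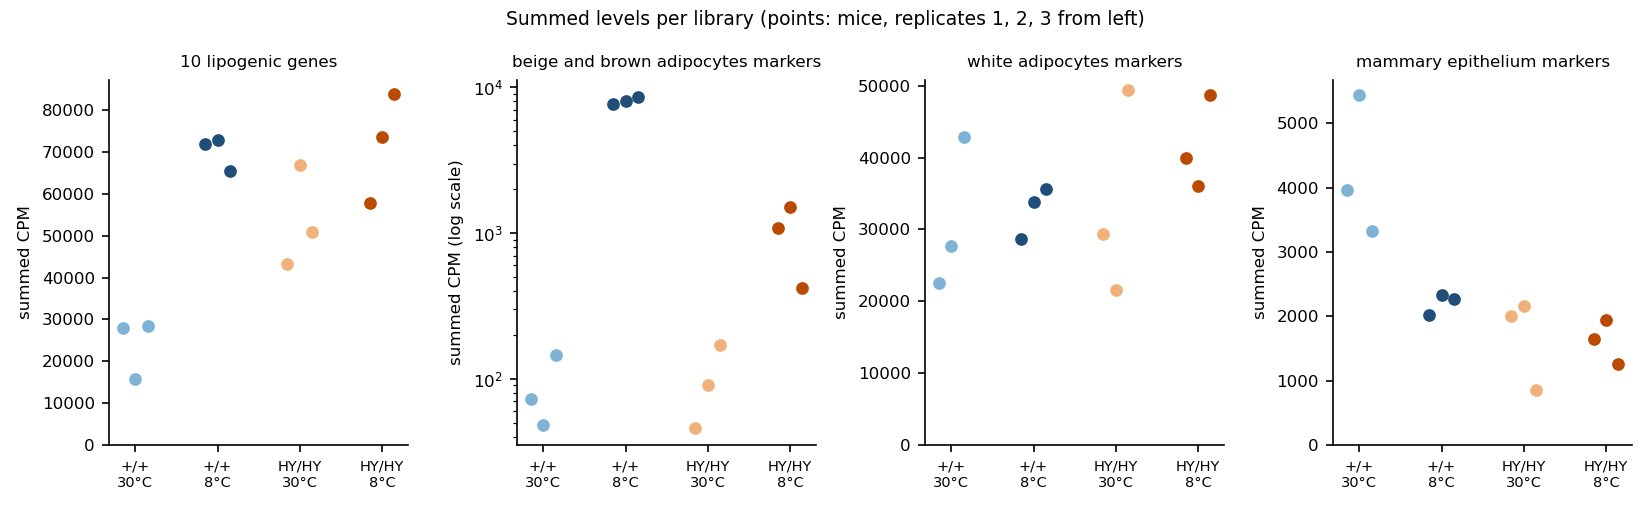
Summed CPM of the 10 lipogenic genes and of marker lists for beige and brown adipocytes (log axis), white adipocytes and mammary epithelium in each library, as points in replicate order. The lipogenic genes stand at 15659 to 28520 CPM in wild-type mice at 30°C and at 43117 to 83762 CPM in the other 9 libraries, while the beige markers are highest in the 3 wild-type libraries at 8°C, at 7659 to 8640 CPM.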

How the data were processed

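Total RNA of scWAT from 12 mice was sequenced as TruSeq libraries with paired 50-base reads. The authors deposited, for each library, raw counts of read pairs per gene in the layout of STAR on the mm10 genome, unstranded and for each strand. FastQC and StringTie are also named in the submitters' processing notes. The sense column was used, which held 95.5% to 96.2% of stranded counts. The 4 entries that name no gene took 55.8% to 63.5% of the pairs, among them 26.7% to 32.2% aligned to several places, so reads shared by near-identical genes such as the Scd family are missing, and levels of these are uncertain. Symbols were matched for 32589 of 55401 IDs, and 2645 IDs that share a symbol were left out of the lists.

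The fits were made in edgeR 4.0.16 under R 4.3.3 (filterByExpr, TMM, glmQLFit, 1 mean per group, 8 residual degrees of freedom, common biological coefficient of variation 20.7%). They were also run on simulated counts whose spread was the same in every group. That run cannot show what unequal spread between the groups does to the calls. The 5 comparisons were cold in each genotype, genotype at each temperature, and their interaction. Tests are two-sided, and intervals are 95%. CPM per kilobase used exon lengths of an mm9 annotation, whose coordinates were not used. Motifs were searched in RefSeq promoters of GRCm38.p6 with Python 3.11.15. The genes named are the 10, up to 4 list genes called in each direction per comparison by smallest adjusted p, the 5 most alike in profile, and Kdm3a. Slc2a4, Nnt, Pklr and the levels of Elovl6 and Nsdhl were singled out after their values were seen. The 10 genes and the lists were chosen with earlier results of these data known. Alternatives were DESeq2 1.42.0, library totals, other filters, both strands, no genes of mitochondrial DNA, fits of the compared libraries alone, a replicate block, other call limits and each library left out in turn. Shares of all genes called were computed for the edgeR fit described first and not for these alternatives.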

Additional observations from a re-analysis of the deposited data

Results flagged for a closer look

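In 7 genes named for the interaction term of edgeR the responses to cold differed between the genotypes, at an adjusted p under 0.05. Over all genes tested, this term called 2.07% lower and 0.169% higher. Of the 10 lipogenic genes these were Acaca (log2 -1.83), Me1 (-2.15) and Acss2 (-2.20). Of the neighbouring lists they were Pgls (-1.14), Me3 (-3.01), Cs (-1.54) and Elovl6 (-2.97), the 4 of 6 called genes with the smallest adjusted p. These 4 were named because they passed this term, so their passing is part of the choice. For Acaca, Me1 and Acss2 the term joins a rise in wild-type mice with higher levels in Jmjd1a HY/HY mice at 30°C. For Pgls, Me3 and Cs, 0 of which were called between the genotypes at 30°C, the levels differed at 8°C. Their fitted log2 differences at 30°C were 0.04, 0.22 and 0.58. That of Cs (edgeR adjusted p = 0.125) is thus also part of its term. With the replicates 2 of both genotypes at 30°C left out, an alternative chosen after the data were seen, Acaca (edgeR adjusted p = 0.0801), Me1 (0.0801), Acss2 (0.0527), Me3 (0.0527), Cs (0.0785) and Elovl6 (0.075) no longer passed.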

How the results depend on the processing

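In wild-type mice the count of lipogenic genes raised by cold stayed between 6 and 8 under every alternative run, and 0 of 220 recomputed values changed sign. For cold in Jmjd1a HY/HY mice DESeq2 called 1 gene higher instead of 0. At 30°C, the 3 genes called higher in Jmjd1a HY/HY mice became 6 with DESeq2, 5 without a filter on low counts, 0 with only the libraries of the comparison and 0 to 6 with each library left out in turn. At 8°C, 1 gene was called lower, instead of 0, with only the libraries of the comparison and with replicate 2 of both genotypes at 30°C left out together. The interaction called 5 with DESeq2, 0 with library totals in place of TMM, 0 to 5 with each library left out in turn and 0 with both replicates 2 left out. Fits of fewer libraries have fewer residual degrees of freedom. Spread also differed by group. The biological coefficient of variation was 24.3% and 26.8% in the thermoneutral wild-type and Jmjd1a HY/HY groups. It was 12.1% and 15.5% in their cold counterparts. With the 30°C libraries alone, the edgeR adjusted p was 0.213 for Me1 and Acss2 and 0.214 for Acaca. With the 8°C libraries alone, that of Mlxipl was 0.0109. The cause of these changes was not tested.

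Signs turned only for values that were not called. With library totals, which put the median of all genes at -0.41 for cold in wild-type mice, -0.15 for cold in Jmjd1a HY/HY mice, 0.25 for the interaction and 0.15 for genotype at 8°C, they turned for Me1 in cold Jmjd1a HY/HY mice (-0.076), Acacb at 30°C (-0.059), and Fasn (0.056) and Acss2 (0.046) at 8°C. With both replicates 2 left out they turned for cold in Jmjd1a HY/HY mice in Acly (0.14), Acaca (0.12), Srebf1 (0.21), Thrsp (0.26) and Acss2 (0.14), and at 30°C in Acacb (-0.39), Srebf1 (-0.51) and Mlxipl (-0.35). With single libraries left out, the log2 change in cold Jmjd1a HY/HY mice ranged over zero for Acly (-1.04 to 0.14), Acaca (-0.43 to 0.12), Srebf1 (-0.52 to 0.21), Thrsp (-0.43 to 0.26), Acss2 (-0.78 to 0.14), Fasn (-0.0024 to 0.45) and Me1 (-0.20 to 0.61). At 30°C it did so for Acacb (-0.23 to 0.32), Srebf1 (-0.34 to 0.40) and Mlxipl (-0.10 to 0.78), at 8°C for Acss2 (-0.21 to 0.095), Fasn (-0.16 to 0.045) and Scd1 (-0.0054 to 0.32), and in the interaction for Srebf1 (-0.074 to 0.66).

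Replicate numbers recur in all 4 groups. Libraries of the same number correlated at -0.0695 to 0.346 (median 0.114) in their deviations from the group means, with 11 of 18 pairs over 0.1, against 5 of 36 pairs of different numbers (median -0.0505), and every pair of replicates 3 was over 0.1 (0.114 to 0.346). Since pairing was to be accepted only with every pair over 0.1, the numbers were not treated as pairs. With the replicate number as a block, cold in wild-type mice raised 8 genes, 4 were called higher at 30°C, Fasn being the one added (edgeR adjusted p = 0.0311), and 3 were called lower in the interaction. The summed level of wild-type mice at 8°C was 61695 CPM with library totals, and the sums without Scd1 are given above. With 3 mice a group, standard errors of the log2 changes were 0.26 to 0.47 in the 4 comparisons and 0.37 to 0.65 in the interaction.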
